A study of Mus musculus with 24 samples.

Results

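The Cyp3a family of the mouse was followed here in liver through 7 genes, Cyp3a11, Cyp3a13, Cyp3a16, Cyp3a25, Cyp3a41a, Cyp3a44 and Cyp3a59. They were taken by symbol as members of the family, with earlier results of these data known. Of the 7, 5 had a probe set of their own (1 each: Cyp3a11, Cyp3a13, Cyp3a16, Cyp3a25 and Cyp3a44) among the 18820 genes measured. Cyp3a41a and Cyp3a59 were covered only by probe sets listed for several Cyp3a genes at once, so no value could be given to either gene alone. The 3 shared probe sets are therefore described as such: 1 listed for Cyp3a25, Cyp3a57 and Cyp3a59, and 2 listed for Cyp3a11, Cyp3a41a, Cyp3a41b and Cyp3a44. Cyp3a57, which is not among the 7, had its own probe set and is given for comparison.

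Livers of 24 male C57BL/6 mice, aged 9 to 12 weeks and fed chow, were hybridised singly to 24 whole-transcript arrays, and the mice formed 4 groups of 6. Wild-type (WT) mice and mice without FXR (FXRKO, labelled FXR-/-, a knockout in the whole body and not in hepatocytes alone) received either vehicle, 1% methyl cellulose, or INT747 in that vehicle. INT747 is obeticholic acid (OCA), a semi-synthetic bile acid that activates FXR, and was gavaged at 10 mg/kg/day for 7 days; vehicle was given the same way. The design asked what loss of the receptor and what its agonist did to liver transcripts, and whether the agonist acted without the receptor.

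Cyp3a enzymes are cytochrome P450 monooxygenases of the endoplasmic reticulum that hydroxylate steroids, bile acids and many drugs, which makes these compounds easier to excrete. In mouse liver their genes are classical targets of the pregnane X receptor (PXR, encoded by Nr1i2) and the constitutive androstane receptor (CAR), which bind DNA together with RXR at repeats of a hexamer such as AGGTCA or AGTTCA. Several members also differ between the sexes under the control of growth hormone, Cyp3a44, Cyp3a41 and Cyp3a16 being known as genes with higher levels in females or in young animals. FXR (encoded by Nr1h4) is the bile acid receptor that limits bile acid synthesis, in part by inducing the repressor SHP (Nr0b2).

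All members lie on chromosome 5. In the RefSeq gene table of GRCm38.p6, 8 protein-coding Cyp3a genes formed a cluster that also held 3 other protein-coding genes and 3 Cyp3a pseudogenes. Cyp3a13 stood apart, with 121 protein-coding genes between it and the cluster. The 250 bases before the RefSeq start are shown for the 5 members with their own probe set, because the results below divide them into 3 genes that were higher in the knockout and 2 that were not. Capitals mark every AGGTCA or AGTTCA on either strand, so TGACCT and TGAACT are the same hexamers read from the opposite strand. Each is printed 5′ to 3′ in the direction of transcription, and all 5 genes are on the minus strand: Cyp3a44 at chr5:145805875-145806124, Cyp3a11 at chr5:145879855-145880104, Cyp3a25 at chr5:146009619-146009868, Cyp3a16 at chr5:145469724-145469973 and Cyp3a13 at chr5:137921620-137921869.
Cyp3a44: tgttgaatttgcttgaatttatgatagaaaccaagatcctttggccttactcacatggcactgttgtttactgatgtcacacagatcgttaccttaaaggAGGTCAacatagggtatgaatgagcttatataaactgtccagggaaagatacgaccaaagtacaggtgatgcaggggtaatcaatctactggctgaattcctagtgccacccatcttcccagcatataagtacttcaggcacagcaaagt
Cyp3a11: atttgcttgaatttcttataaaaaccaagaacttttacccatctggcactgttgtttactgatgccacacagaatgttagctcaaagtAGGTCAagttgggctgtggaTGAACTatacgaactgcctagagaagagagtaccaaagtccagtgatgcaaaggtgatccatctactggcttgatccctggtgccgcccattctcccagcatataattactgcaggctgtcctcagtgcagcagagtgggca
Cyp3a25: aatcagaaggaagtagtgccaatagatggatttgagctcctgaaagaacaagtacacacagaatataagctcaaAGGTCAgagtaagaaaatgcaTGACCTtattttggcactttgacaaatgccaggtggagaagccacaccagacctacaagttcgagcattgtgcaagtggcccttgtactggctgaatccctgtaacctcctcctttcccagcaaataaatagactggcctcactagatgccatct
Cyp3a16: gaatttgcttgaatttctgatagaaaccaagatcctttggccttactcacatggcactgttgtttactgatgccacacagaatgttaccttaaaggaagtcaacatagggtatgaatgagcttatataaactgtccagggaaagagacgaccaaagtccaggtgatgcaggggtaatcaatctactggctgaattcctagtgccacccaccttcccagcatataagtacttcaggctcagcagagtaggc
Cyp3a13: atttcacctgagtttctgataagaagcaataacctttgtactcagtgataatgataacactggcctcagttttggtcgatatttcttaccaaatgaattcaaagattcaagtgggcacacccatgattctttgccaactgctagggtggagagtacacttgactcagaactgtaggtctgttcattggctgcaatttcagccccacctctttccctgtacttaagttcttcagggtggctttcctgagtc

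AGGTCA was found once before Cyp3a44 (bases -150 to -145 from the start), once before Cyp3a11 (-162 to -157) and at 2 places before Cyp3a25 (-176 to -171 and, on the opposite strand, -155 to -150). Neither Cyp3a13 nor Cyp3a16 held it, and neither did Cyp3a41a or Cyp3a41b. Cyp3a41a and Cyp3a41b share with Cyp3a11 and Cyp3a44 the probe sets that were also higher in the knockout, as given below. Whether these letters go with the levels was not tested. Across all 27025 RefSeq promoters of this length, 13.8% held AGGTCA and 11.9% held AGTTCA, so a single match is common. AGTTCA was found before Cyp3a11 (-142 to -137, opposite strand) and before Cyp3a41a, and before none of the other 5 members. Cyp3a59, like Cyp3a25, held 2 copies of AGGTCA. The forkhead letters TGTTTAC, present in 3.09% of promoters, were found before Cyp3a11, Cyp3a16, Cyp3a41a and Cyp3a44, and CAAAGTCCA, a core read by HNF4A and present in 0.381%, before Cyp3a11, Cyp3a16 and Cyp3a41a. TATAAA, present in 13% of promoters, was found before the same 4 members as the forkhead letters. Direct repeats of AGGTCA with 1, 3 or 4 bases between them, of AGTTCA with 3, the everted repeat TGAACT to AGGTCA with 6, the inverted repeat AGGTCA to TGACCT with 1, the STAT core TTCNNNGAA and the HNF1 palindrome had no match in this window of any Cyp3a gene on either strand. Across all promoters the STAT core was found in 7.18%, and each of the other arrangements in at most 0.037%. Their absence from so few promoters was therefore likely in advance and says little about the Cyp3a genes. The search allowed no mismatch, the paired arrangements contain the single hexamers, and a match here is a description of letters and not of binding.

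The promoters of the cluster fell into 2 sets, with that of Cyp3a13 outside both. Cyp3a44 was 94.4% identical to Cyp3a41a, 92.91% to Cyp3a16 and 71.7% to Cyp3a11 over these bases, and Cyp3a25 was 94.82% identical to Cyp3a59. Between the sets, Cyp3a11 and Cyp3a25 were 52.71% identical, and Cyp3a13 was 47.46% to 56.2% identical to the other 6 members.

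WT vehicle replicate 6 stood apart before any comparison: 532 genes lay over 2-fold from its group mean, against 2 to 90 genes in the other 23 arrays. The check of the genotype was mixed. Under vehicle Nr0b2 reached 4.60 in the highest knockout array and 5.87 in the lowest WT array (FXRKO minus WT -2.62 ± 0.25 SE, limma, Benjamini-Hochberg adjusted p = 1.21e-08), whereas Nr1h4 itself differed by -0.17 ± 0.07 (adjusted p = 0.0935), with a probe position in the gene that no source used here gives. The arrays also carry a code number in their names, whose meaning is not given. All 6 WT OCA arrays had number 5 and all 6 FXRKO OCA arrays number 9; of the vehicle arrays, 4 WT and 4 FXRKO had number 7, 2 WT had number 5 and 2 FXRKO had number 9. In bulk liver a change in the number of hepatocytes and a change in RNA per hepatocyte cannot be told apart.

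Loss of FXR went with higher Cyp3a44, Cyp3a11 and Cyp3a25 under vehicle, and the groups did not overlap for any of the 3. Cyp3a44 was 2.00-fold, Cyp3a11 1.36-fold and Cyp3a25 1.34-fold higher, while Cyp3a13 and Cyp3a16 did not pass the test. Thus 3 of 5 measured members were called higher (limma, adjusted p under 0.05 over 18820 genes) and 0 lower, beside 15.4% of all genes called higher and 27.5% called in either direction. The median change over all genes was -0.03. Groups that did not overlap, with the knockout higher, were seen for 9.4% of all genes.

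Cyp3a44, a member known for its female-biased level, had log2 values of 6.33 to 6.66 (median 6.57) in WT vehicle, 6.40 to 7.11 (median 6.69) in WT OCA, 7.36 to 7.81 (median 7.47) in FXRKO vehicle and 7.32 to 7.86 (median 7.39) in FXRKO OCA livers. All 12 knockout arrays were above all 12 WT arrays, with the highest WT value, 7.11 in WT OCA replicate 2, below the lowest knockout value of 7.32. The knockout minus WT difference under vehicle was 1.00 ± 0.11 (SE, n = 6 per group, limma adjusted p = 5.35e-08), with a 95% interval of 0.78 to 1.22.

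Cyp3a11, the main PXR-inducible Cyp3a of adult mouse liver, read 11.98 to 12.29 (median 12.15) in WT vehicle, 12.08 to 12.36 (median 12.16) in WT OCA, 12.48 to 12.73 (median 12.58) in FXRKO vehicle and 12.49 to 12.68 (median 12.57) in FXRKO OCA livers. Here too the 12 knockout arrays lay above the 12 WT arrays. The difference under vehicle was 0.44 ± 0.06 (SE, limma adjusted p = 2.52e-06, 95% interval 0.32 to 0.56). Values this high lie near the top of the array's scale, whose highest value was 13.6, and whether the signal there was still proportional to the transcript was not tested.

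Cyp3a25, a hepatic Cyp3a that is expressed in both sexes, read 11.40 to 11.89 (median 11.74) in WT vehicle, 11.62 to 11.94 (median 11.85) in WT OCA, 12.00 to 12.22 (median 12.13) in FXRKO vehicle and 12.07 to 12.28 (median 12.17) in FXRKO OCA livers. The lowest value belonged to WT vehicle replicate 6, the array that stood apart, and again no knockout array fell within the WT range. The difference under vehicle was 0.42 ± 0.07 (SE, limma adjusted p = 5.91e-05, 95% interval 0.27 to 0.57). All 12 knockout arrays above all 12 WT arrays was seen for 5.96% of the 18820 genes. Without WT vehicle replicate 6 the differences under vehicle were 0.98 for Cyp3a44, 0.43 for Cyp3a11 and 0.36 for Cyp3a25, and all 3 stayed called (adjusted p = 2.27e-07, 6.80e-06 and 7.99e-05).

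**Figure D1:**
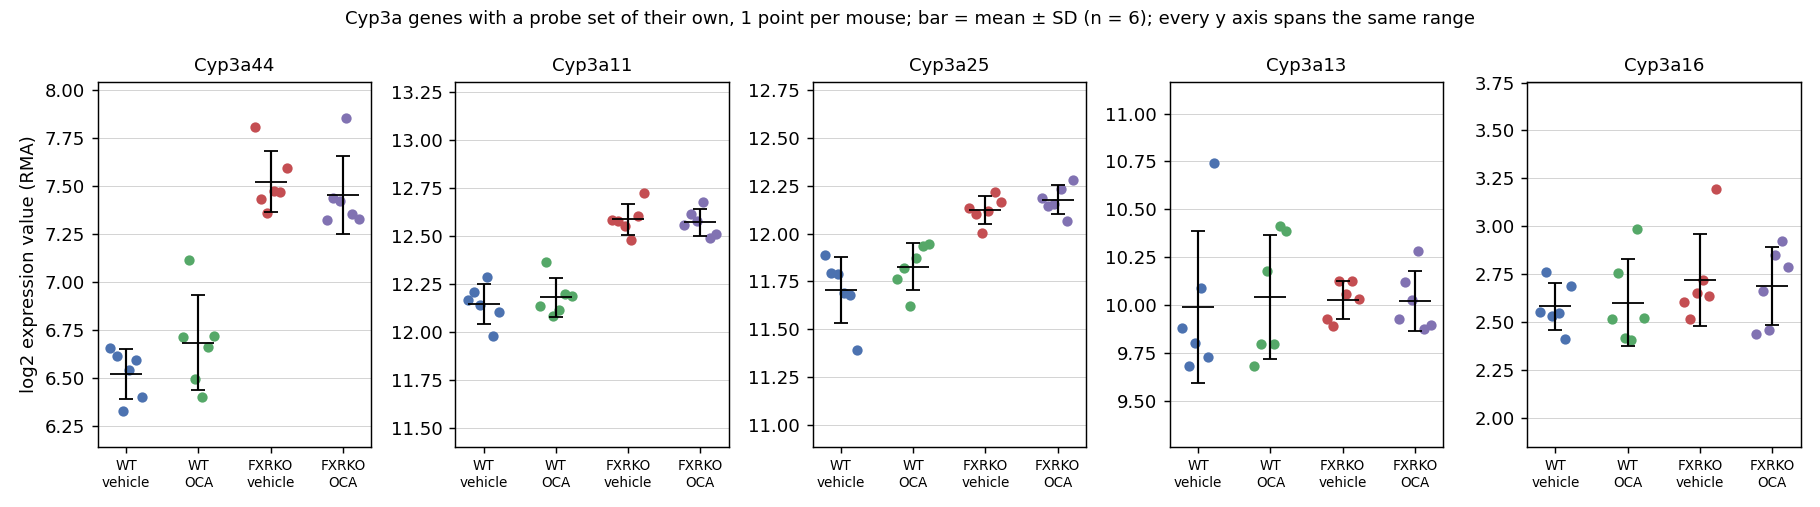
Log2 expression values (y axis) of the 5 Cyp3a genes with their own probe set in the 4 groups (x axis), 1 point per mouse, with bars for the mean ± SD (n = 6). Each y axis spans the same range. Cyp3a11, Cyp3a25 and Cyp3a44 sit higher in all 12 knockout livers than in any WT liver, while Cyp3a13 and Cyp3a16 overlap between genotypes.

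Cyp3a13 and Cyp3a16 gave a different picture. Cyp3a13, the member outside the cluster and known for its expression in the intestine as well as the liver, differed by 0.04 ± 0.15 (SE, limma adjusted p = 0.884), with a 95% interval of -0.26 to 0.34. Its values were 9.69 to 10.74 (median 9.84) in WT vehicle, 9.68 to 10.41 (median 9.99) in WT OCA, 9.89 to 10.13 (median 10.05) in FXRKO vehicle and 9.88 to 10.28 (median 9.98) in FXRKO OCA livers. The WT groups spread more (SD 0.40 and 0.32) than the knockout groups (SD 0.10 and 0.16). Without WT vehicle replicate 6, which held the highest value, the difference under vehicle was 0.19 ± 0.12 (adjusted p = 0.251, 95% interval -0.05 to 0.43).

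Cyp3a16, a gene known from fetal and young liver, read between 2.41 and 3.20 in all 24 arrays, near the lower end of a scale that began at 0.87. It differed by 0.14 ± 0.11 (SE, limma adjusted p = 0.401, 95% interval -0.09 to 0.37). No detection calls were used here, so such a signal may be background. Cyp3a57 read 2.08 to 2.85 in all arrays. It was 0.27 ± 0.08 higher in the knockout under vehicle (limma adjusted p = 0.0139), a call that was lost with array code number as block (0.22, adjusted p = 0.116).

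Under OCA the genotype difference had the same direction. Cyp3a44 was 0.77 ± 0.11 (SE) higher in the knockout (1.70-fold, limma adjusted p = 2.67e-06), Cyp3a11 0.39 ± 0.06 (1.31-fold, adjusted p = 1.17e-05) and Cyp3a25 0.35 ± 0.07 (1.28-fold, adjusted p = 3.95e-04). Again 3 of 5 members were called higher, beside 17.4% of all genes called higher and 30.7% in either direction. The groups did not overlap for these 3, as for 10.9% of all genes with the knockout higher. Cyp3a13 differed by -0.02 ± 0.15 (adjusted p = 0.940) and Cyp3a16 by 0.09 ± 0.11 (adjusted p = 0.617). Cyp3a57 differed by 0.16 ± 0.08 (adjusted p = 0.152), and without WT OCA replicate 4 by 0.22, which passed (adjusted p = 0.0391).

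The comparison under OCA shares no array code number between the genotypes, so number and genotype cannot be told apart there except through the vehicle arrays. With the number as a block, 0 of 5 members were called, beside 12.4% of all genes. Of the WT vehicle arrays only replicates 5 and 6 share a number with WT OCA, so these estimates rest in part on them. Cyp3a44 then differed by 0.59 ± 0.25 (SE, limma adjusted p = 0.143), Cyp3a11 by 0.24 ± 0.13 (adjusted p = 0.278) and Cyp3a25 by 0.10 ± 0.15 (adjusted p = 0.727), with standard errors more than double those without the block. Under vehicle, where 4 arrays of each genotype share number 7, the 3 differences were kept within that number: 0.94 ± 0.09 for Cyp3a44 (adjusted p = 4.01e-05), 0.39 ± 0.07 for Cyp3a11 (adjusted p = 0.00353) and 0.34 ± 0.07 for Cyp3a25 (adjusted p = 0.00824).

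The shared probe sets carried the same direction, although their signal cannot be assigned to 1 gene. The first of the 2 listed for Cyp3a11, Cyp3a41a, Cyp3a41b and Cyp3a44 read 9.54 to 10.07 (median 9.86) in WT vehicle and 10.69 to 11.41 (median 10.79) in FXRKO vehicle livers. The second read 9.19 to 9.77 (median 9.53) and 10.35 to 11.09 (median 10.49). The groups did not overlap in either, and the differences were 1.07 ± 0.15 (SE, adjusted p = 1.09e-05) and 1.08 ± 0.15 (adjusted p = 6.80e-06) in limma's fit over all 35556 probe sets, of which 10.1% were called higher.

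These differences of about 1 under vehicle were nearer in size to that of the Cyp3a44 probe set than to that of Cyp3a11. Differences between probe sets were not tested. Their levels lay between the 2 genes, with WT vehicle means of 9.83 and 9.50 against 6.52 for Cyp3a44 and 12.15 for Cyp3a11. Both probe sets listed for 4 genes moved together over the 24 arrays (r = 0.99 and rho = 0.99 between deviations from the group means, a description), and probe sets of such close copies share sequence. Their deviations went most with those of Cyp3a16, for which they are not listed (r = 0.70 and 0.68). With Cyp3a44 r was 0.46 for both, and with Cyp3a11 0.40 and 0.39, so they did not follow Cyp3a44 alone. The probe set listed for Cyp3a25, Cyp3a57 and Cyp3a59 was 0.54 ± 0.09 higher in the knockout under vehicle (adjusted p = 8.31e-05). Its deviations went with those of the Cyp3a25 probe set at r = 0.86 and with those of Cyp3a57 at r = 0.30.

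Under OCA the shared probe sets were higher in the knockout by 1.01 ± 0.15 for both listed for 4 genes (adjusted p = 1.96e-05 and 1.32e-05) and by 0.38 ± 0.09 for the other (adjusted p = 0.00237), beside 11.5% of all probe sets called higher. With array code number as block these were 0.88, 0.87 and 0.19 (adjusted p = 0.163, 0.155 and 0.631). The knockout OCA group spread most, from 10.51 to 11.52 in the first of the probe sets listed for 4 genes.

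**Figure D2:**
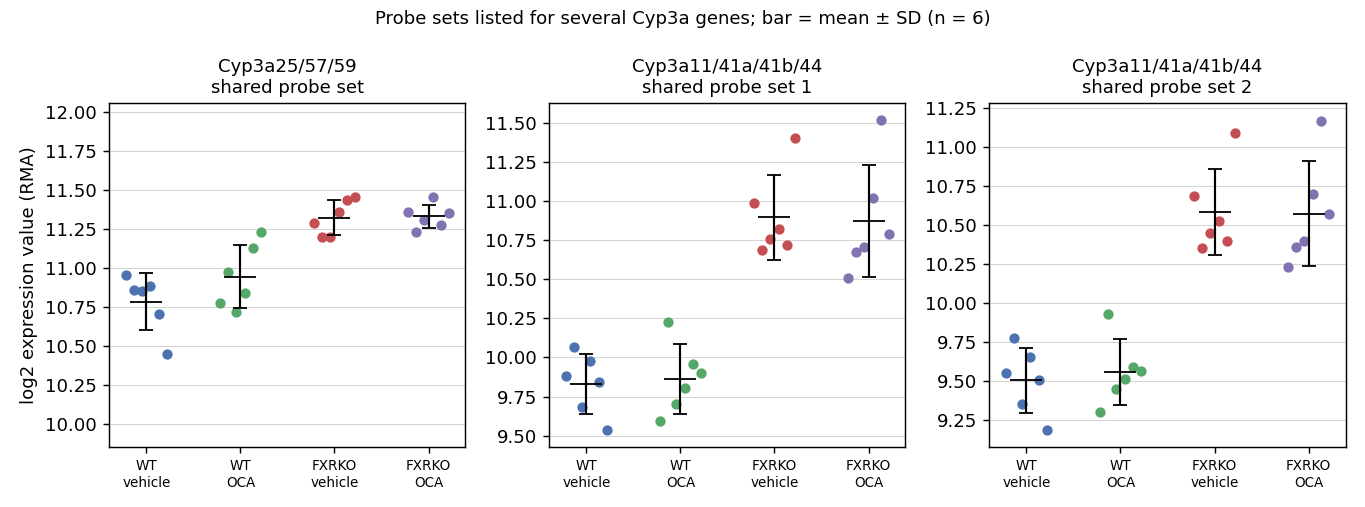
Log2 expression values (y axis) of the 3 probe sets listed for several Cyp3a genes in the 4 groups (x axis), 1 point per mouse, with bars for the mean ± SD (n = 6). Under vehicle and under OCA every knockout liver lies above every WT liver of the same treatment in all 3.

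None of the 5 members passed the test for a change by OCA in either genotype. In WT liver the changes were 0.16 ± 0.11 (SE) for Cyp3a44, 0.12 ± 0.07 for Cyp3a25, 0.05 ± 0.15 for Cyp3a13, 0.03 ± 0.06 for Cyp3a11 and 0.02 ± 0.11 for Cyp3a16 (limma adjusted p = 0.638 to 0.977). OCA called 0.0691% of all genes in WT liver (13 genes), while 1782 genes (9.47%) had an unadjusted p under 0.05, and none of the 5 members was among either. With array code number as block 667 genes (3.54%) were called, and again 0 of the 5 members. That fit compares WT OCA with WT vehicle replicates 5 and 6 alone, and replicate 6 is the array that stood apart. Nr0b2 was among the 13 genes, at 1.41 ± 0.25 (adjusted p = 0.0244). That call was lost without WT vehicle replicate 6 (1.26 ± 0.25, adjusted p = 0.0526) and kept with array code number as block (1.42 ± 0.37, adjusted p = 0.0378).

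The intervals show which sizes these data leave. For Cyp3a11 in WT liver the 95% interval ran from -0.09 to 0.16, that is from 6.08% lower to 11.4% higher. With array code number as block the change of Cyp3a11 was 0.14 ± 0.08 (adjusted p = 0.392), with an interval of -0.03 to 0.31 that reaches 23.7% higher. Without the block the interval ran from -0.03 to 0.27 for Cyp3a25 and from -0.06 to 0.38 for Cyp3a44. An increase of up to 30.1% of Cyp3a44 lies within the latter, and with the block the interval of Cyp3a44 reached 0.50 (41.7% higher). Cyp3a13 could lie between -0.25 and 0.36. The largest change over the alternative settings was 0.29 for Cyp3a25 with array code number as block (limma adjusted p = 0.076, 95% interval 0.10 to 0.48). That value compares WT OCA with WT vehicle replicates 5 and 6 alone. Without replicate 6, and without the block, the change was 0.06 (limma adjusted p = 0.808).

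In knockout liver the changes under OCA were -0.07 ± 0.11 for Cyp3a44, 0.05 ± 0.07 for Cyp3a25, -0.03 ± 0.11 for Cyp3a16, -0.02 ± 0.06 for Cyp3a11 and -0.0049 ± 0.15 for Cyp3a13, with 0 of 5 called and limma adjusted p of 0.997 to 0.999. Among all genes 0.0159% (3 genes) were called and 968 (5.14%) had an unadjusted p under 0.05. The difference of the OCA effect between knockout and WT liver was -0.23 ± 0.15 for Cyp3a44 (adjusted p = 0.855, 95% interval -0.54 to 0.08), and between -0.07 and -0.05 for the other 4 members (adjusted p = 0.950 to 0.985). That test called 0 of 18820 genes (limma), with 1140 (6.06%) at an unadjusted p under 0.05. With array code number as block it called 34 genes (0.181%), none of them among the 5 members.

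**Figure D3:**
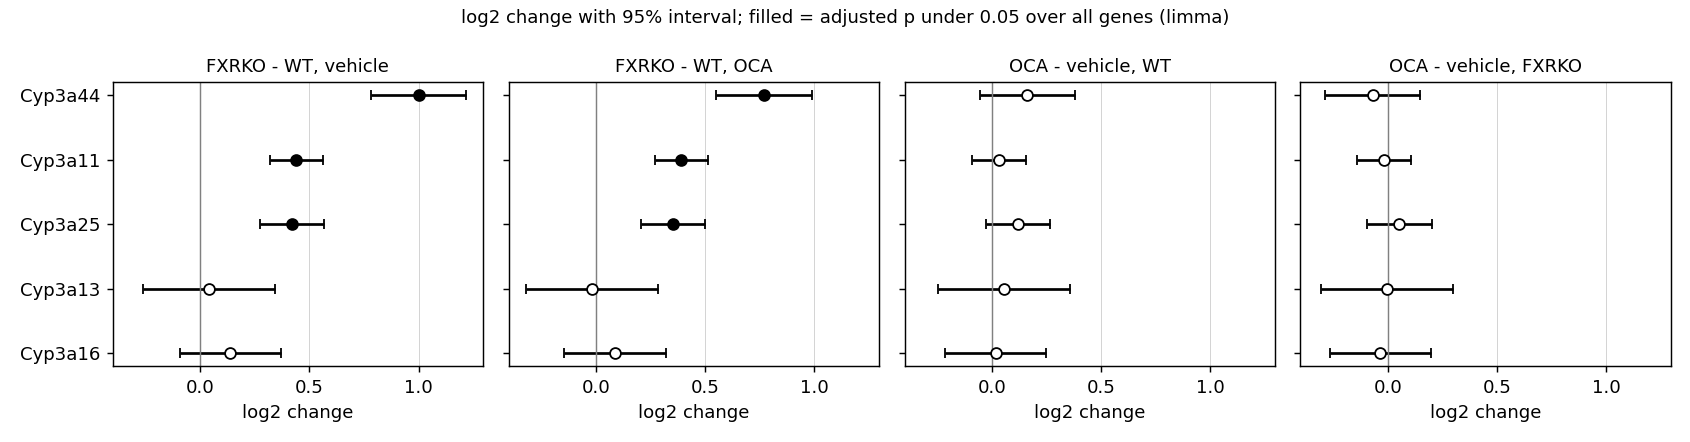
Log2 change (x axis) with its 95% interval for the 5 Cyp3a genes (y axis) in each comparison; filled points passed limma's test (adjusted p under 0.05 over all genes). Filled points appear only for Cyp3a11, Cyp3a25 and Cyp3a44 and only in the genotype comparisons, up to 1.00 for Cyp3a44 under vehicle, and the OCA comparisons hold none.

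In order of level, Cyp3a11 rose from WT vehicle over WT OCA to FXRKO OCA and FXRKO vehicle, and of these steps the test separated WT OCA from FXRKO OCA alone (0.39). Cyp3a44 had the same order, with the tested step of 0.77 at the same place. Cyp3a25 ran from WT vehicle over WT OCA to FXRKO vehicle and FXRKO OCA, and the step of 0.30 between WT OCA and FXRKO vehicle passed (limma adjusted p = 0.00211). That step changes genotype and treatment at once, and its groups share no array code number; with the number as a block it was 0.05 ± 0.12 (adjusted p = 0.847). The same holds of the numbers for the steps between WT OCA and FXRKO OCA, which were not called with the block, as given above. No step between neighbours was separated for Cyp3a13 or Cyp3a16.

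Cyp3a13 varied between mice rather than between groups. Its highest values were 10.74 in WT vehicle replicate 6, 10.41 in WT OCA replicate 5 and 10.39 in WT OCA replicate 6. The gene whose deviations from its group mean were most like those of Cyp3a13 over the 24 arrays was Serpina3n, a secreted serine protease inhibitor of the acute phase (r = 0.94, rho = 0.89), followed by Fgl1, a liver-secreted fibrinogen-like protein (r = 0.93), and Ttpal (r = 0.91). Without the 2 arrays farthest from the median, r with Serpina3n was 0.89. It was 0.98 over the 12 WT and 0.60 over the 12 knockout arrays.

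Serpina3n read 13.19, 12.54 and 12.39 in the same 3 WT arrays and 11.68 to 12.21 in the other 9 WT arrays. The 19 measured acute phase genes summed to 96620 in WT vehicle replicate 6, 79199 in WT OCA replicate 5 and 67928 in WT OCA replicate 6 on the linear scale, against 44123 to 54425 in the other 9 WT livers. The knockout livers summed to 58663 to 71338, and their Cyp3a13 values lay between 9.88 and 10.28. All arrays share 1 platform and the search ran over all genes, so the closest genes are a description with no test.

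**Figure D4:**
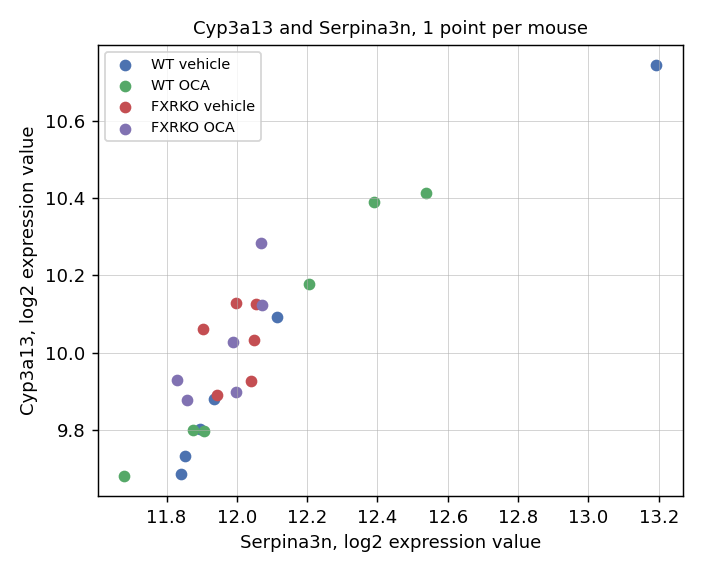
Cyp3a13 (y axis) against Serpina3n (x axis), both as log2 expression values, 1 point per mouse, coloured by group. The 3 WT livers at 12.39, 12.54 and 13.19 for Serpina3n hold the 3 highest Cyp3a13 values (10.39 to 10.74).

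The other members had other close companions, by the same measure. For Cyp3a25 it was Erlin1, a protein of the endoplasmic reticulum membrane (r = 0.86, rho = 0.75, and 0.77 without 2 arrays), then Pdxdc1 (r = 0.79) and Qser1 (r = 0.78). For Cyp3a11 these were Snord57 (r = 0.77), Gpr149 (r = 0.76) and Sec16a (r = 0.75), for Cyp3a44 Ppp1r14d (r = 0.74), Klhl35 (r = 0.73) and Rab27b (r = 0.71), and for Cyp3a16 Theg (r = 0.74), Olfr1167 (r = 0.70) and Psg19 (r = 0.70). Olfr1167 fell to r = 0.32 without 2 arrays. Gpr149, Ppp1r14d, Klhl35, Rab27b, Theg, Olfr1167 and Psg19 had group means of at most 4.27, below the median gene at 5.28. Such signals may be background. Within the family, Cyp3a11 and Cyp3a44 went together at r = 0.59, Cyp3a11 and Cyp3a25 at r = 0.31, and Cyp3a13 and Cyp3a25 at r = -0.33, which was -0.02 without 2 arrays. All r are over 24 arrays and deviations from the group mean.

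Of the 2 genes on each side of the cluster, Zfp655 was 0.31 ± 0.11 higher in the knockout under vehicle (limma adjusted p = 0.0305) and 0.44 ± 0.11 under OCA (adjusted p = 0.00215). Zscan25, Rnf6 and Cdk8 were not called under vehicle (adjusted p = 0.236, 0.280 and 0.0985). Zfp655 ran from 7.35 to 8.15 in WT vehicle and from 7.92 to 8.22 in FXRKO vehicle livers, so its groups overlapped.

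Genes known to respond to PXR and CAR differed between the genotypes too. Of the 18 measured genes of that list, 16 were higher and 2 lower in the knockout under vehicle, with a median change of 0.89 (all genes: 15.4% higher, median -0.03). Cyp2c55, a PXR- and CAR-inducible P450, read at most 6.62 in WT vehicle and at least 10.49 in FXRKO vehicle livers, a difference of 4.52 ± 0.18 (adjusted p = 7.39e-16). Abcc4, a basolateral exporter of bile acids and drugs, was 3.51 ± 0.13 higher (adjusted p = 1.27e-16) and Gstm3, a glutathione transferase, 1.68 ± 0.11 (adjusted p = 1.73e-11). Sult5a1, a sulfotransferase, fell by 3.66 ± 0.15 (adjusted p = 9.26e-16).

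In the knockout under OCA 16 of the 18 genes of that list were higher and 2 lower (all genes: 17.4% and 13.3%), and 9 and 1 with array code number as block. OCA itself changed 0 of 18 in WT and 0 of 18 in knockout liver.

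In the knockout under vehicle no regulator of Cyp3a transcription was called higher. Of 22 measured regulators, 0 were higher and 9 lower in the knockout under vehicle (all genes: 12.1% lower), with a median of -0.22. Without WT vehicle replicate 6, 14 were lower, and 11 with array code number as block. The smallest p belonged to Nr0b2, with the value given above, then to Hnf4a, a master regulator of hepatocyte genes (-0.52 ± 0.08, adjusted p = 2.95e-05), and Ppargc1a, a coactivator (-0.61 ± 0.13, adjusted p = 6.22e-04). Under OCA, where genotype and array code number cannot be told apart, 12 were lower (all genes: 13.3%), and 8 with the number as block. Among the 12 were Nr1i2, which encodes PXR, at -0.69 ± 0.08 (limma without the block, adjusted p = 2.13e-07), and its partner Rxra at -0.44 ± 0.06 (adjusted p = 3.17e-06). Nr1i2 read 8.82 to 9.28 in WT vehicle, 9.26 to 9.41 in WT OCA, 8.69 to 8.91 in FXRKO vehicle and 8.42 to 8.88 in FXRKO OCA livers. Under vehicle it differed by -0.29 ± 0.08 (adjusted p = 0.00867). By OCA in WT liver 1 of the 22 regulators, Nr0b2, was called higher, and 4 with array code number as block.

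P450 enzymes need heme and electrons from partner proteins. Of 14 measured genes for these supplies, 10 were higher and 1 lower in the knockout under vehicle, with a median of 0.30 (all genes: 15.4% higher, 12.1% lower). Cyb5a, the cytochrome b5 that passes electrons to P450s, was 0.34 ± 0.05 higher (adjusted p = 1.03e-05), Pgrmc1, a heme-binding partner of P450s, 0.30 ± 0.05 (adjusted p = 5.07e-05) and Blvrb, a biliverdin reductase of heme breakdown, 0.80 ± 0.08 (adjusted p = 1.67e-08). Hmox1, which breaks heme down, was 1.22 ± 0.24 higher (adjusted p = 3.55e-04), so the list holds both supply and removal. Under OCA 8 were higher and 2 lower (all genes: 17.4% and 13.3%), and 3 and 0 with array code number as block.

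Genes known to differ between the sexes in liver were changed in these male livers: 13 of 16 measured female-biased genes were higher and 0 lower in the knockout under vehicle (median 1.75), and 18 of 19 male-biased genes were lower and 0 higher (median -1.73). Of all genes 15.4% were higher and 12.1% lower. Cyp2b9, a female-biased P450, read 3.27 to 5.29 in WT vehicle and 11.81 to 11.99 in FXRKO vehicle livers (7.40 ± 0.38, adjusted p = 8.66e-14), and Elovl3, a male-biased fatty acid elongase, 9.62 to 11.94 and 2.95 to 3.95 (-7.48 ± 0.29, adjusted p = 6.01e-16). In the growth hormone list, 3 of 13 were higher and 8 lower, among them Igf1 (-0.68 ± 0.07, adjusted p = 2.34e-08) and Ghr, the growth hormone receptor (-0.39 ± 0.05, adjusted p = 5.01e-07). Of 82 other P450 genes measured, 18 were higher and 31 lower, with a median of -0.14 (all genes: 15.4% higher, 12.1% lower, median -0.03). In the knockout under OCA 15 of 16 female-biased genes were higher and 18 of 19 male-biased genes lower (all genes: 17.4% and 13.3%). With array code number as block these were 9 and 13. The growth hormone list then had 3 higher and 8 lower, and 1 and 3 with the block. The other P450 genes had 20 higher and 24 lower, and 11 and 13 with the block.

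**Figure D5:**
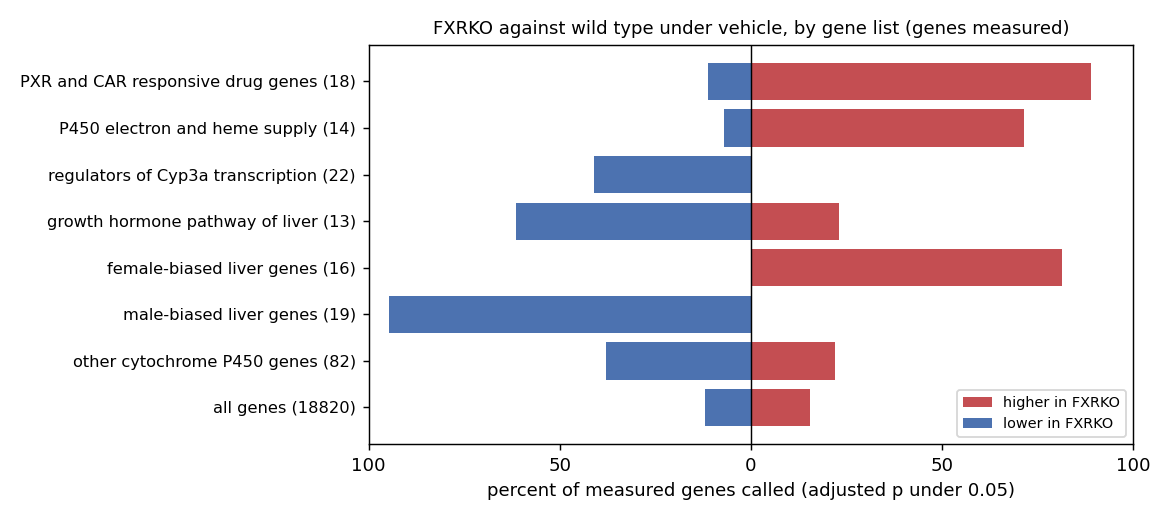
Percent of the measured genes of each list (x axis) called higher (right) or lower (left) in FXRKO than in WT liver under vehicle, 1 row per list (limma, adjusted p under 0.05 over all genes). The PXR and CAR list has 16 of 18 genes higher and the regulators of Cyp3a transcription 9 of 22 lower, beside 15.4% and 12.1% of all genes.

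Some markers of cell types differed between the genotypes as well, and their part in the Cyp3a differences was not tested. Under vehicle 15.4% of all genes were called higher and 12.1% lower, and the counts below stand beside these shares. The 14 measured hepatocyte markers, none of them below the median gene, summed to 100887 to 111052 in WT vehicle and 95151 to 101069 in FXRKO vehicle livers. These ranges overlapped, and 0 of the markers were higher and 3 lower. Of 12 Kupffer and macrophage markers 9 were higher and 0 lower (sums 2886 to 5386 in WT vehicle and 6073 to 7014 in FXRKO vehicle), and of 9 stellate markers 9 were higher (2191 to 3003 and 3964 to 4963). Of 8 periportal genes 1 was higher and 6 lower (29855 to 32094 and 21847 to 23157), and of 12 pericentral genes 5 were higher and 3 lower (27297 to 30481 and 28596 to 29987). Under OCA the sums in WT and knockout livers were 101583 to 108946 and 91851 to 100390 for hepatocyte markers, 2364 to 6202 and 5896 to 10458 for Kupffer and macrophage markers, and 2130 to 2872 and 4477 to 4992 for stellate markers. Of these ranges only those of the Kupffer and macrophage markers overlapped. In the knockout under OCA 0 of the 14 hepatocyte markers were higher and 9 lower (all genes: 17.4% and 13.3%). With array code number as block these counts were 0 and 0.

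Of the sinusoidal endothelial markers 0 of 9 were higher and 2 lower (sums 3289 to 4131 in WT vehicle and 2860 to 3751 in FXRKO vehicle livers), beside 15.4% and 12.1% of all genes. Of 6 cholangiocyte markers 2 were higher (155 to 214 and 175 to 223), and Krt19, Krt7, Epcam, Cftr and Cldn4 were below the median gene. Of 7 lymphocyte and neutrophil markers 1 was higher, near the share of all genes (166 to 280 and 205 to 240), and Cd3e, Cd3g, Cd79a, S100a8, S100a9 and Nkg7 were below the median gene. Of 8 small intestine markers 0 were higher and 2 lower (516 to 810 and 210 to 272), and all but Fabp2 were below the median gene. Of 19 acute phase genes 6 were higher and 2 lower (46040 to 96620 and 58663 to 69190), Orm2 most at 3.43 ± 0.44 (adjusted p = 1.27e-06).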

How the data were processed

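Liver RNA of 24 mice was measured on whole-transcript arrays, 1 array per mouse. The deposited values were log2 expression values obtained by RMA, per the submitters' processing notes; the log base was taken from the range of 0.87 to 13.6, and no source used here gives the RMA version. They were used as they are. Of 35556 probe sets, 21218 mapped to 1 gene symbol, 1881 to several and 12457 to none listed; the probe set with the highest mean was kept for each of 18820 genes. Symbols were updated by gene number from a RefSeq table of GRCm38.p6.

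limma 3.58.1 in R 4.3.3 was used to fit the means of the 4 groups (20 residual and 4.46 prior degrees of freedom), with 5 contrasts and Benjamini-Hochberg adjustment over all 18820 genes. Probe sets listed for several Cyp3a genes were read from the same model over all 35556 probe sets. Calls were made at an adjusted p under 0.05, and changes are given as log2 change ± SE. The number of arrays limits the precision. The model was tested in advance on simulated data in which 200 of 18820 genes were changed. Of changes of 0.4 it called 53.5% to 62.5% in the comparisons of 2 groups and 14% for the difference of the OCA effect. Of changes of 1 it called 98.5% to 99.5% and 94.5%.

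Summed marker levels are sums of 2 to the power of the log2 values. Promoters were the 250 bases before the start in the RefSeq promoter table of GRCm38.p6, which matched 7 of 7 members; pairs were aligned with Biopython 1.88. Figures were drawn with matplotlib 3.10.9.

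The members and lists were chosen with earlier results of these data known. Named were the 7 members, up to 4 members of each list with the smallest p in a contrast, the 2 named genes on each side of the cluster, the 3 genes most like each member, and Nr1h4 and Nr0b2; Cyp3a57 was added after its values were seen. Alternatives were each array left out in turn, blocks by replicate number or by array code number, a fit within 1 code number, a fit without the other groups, a fit without the 4 arrays with names ending in 2, median centring, quantile normalization, robust eBayes with a trend, array weights, a filter at the median gene, all probe sets, and averaging the probe sets of a gene.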

Additional observations from a re-analysis of the deposited data

Results flagged for a closer look

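In 36 groups of 6 arrays (9 Cyp3a probe sets in 4 groups), 4 held an array whose gap to its nearest neighbour exceeded the 95% critical value of Dixon's test, 0.625 of the group's range; chance alone gives about 1 in 20 groups. Cyp3a16 read 3.20 in FXRKO vehicle replicate 6, against 2.52 to 2.72 in the other 5 arrays of that group. Cyp3a44 read 7.86 in FXRKO OCA replicate 4, against 7.32 to 7.44 in the others, and without that array Cyp3a44 stayed called in the knockout under OCA. Cyp3a57 read 2.79 in WT OCA replicate 4 and 2.73 in FXRKO vehicle replicate 6, both at the low end of the scale.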

How the results depend on the processing

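Of the 3 calls in the knockout under vehicle, all were kept in the 24 alternative fits run for each (Cyp3a11 0.39 to 0.48, Cyp3a25 0.34 to 0.45 and Cyp3a44 0.94 to 1.03). Under OCA they were kept in 22 of 23 fits. The exception was the block by array code number, with 0 of 5 members called; the median standard error over all genes was 0.22 with that block and 0.09 without it, since the genotypes share no code number under OCA. For the same reason a fit within 1 code number was not run for that comparison. The members called by OCA in WT liver, by OCA in knockout liver and by the difference stayed at 0 in every fit run. The filter at the median gene removed Cyp3a16 and Cyp3a57, and averaging probe sets changed nothing for the members, which have 1 each.

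Sign changes were met in uncalled values, not all of them close to 0, and their cause was not tested. With the code number as block, and equally within shared code numbers, Cyp3a13 changed under OCA by -0.19 in WT and 0.11 in knockout liver, a difference of 0.31, and Cyp3a16 by 0.13 in knockout liver, a difference of 0.076. Of WT vehicle, the values of -0.19 and 0.31 use replicates 5 and 6 alone, which read 9.73 and 10.74 for Cyp3a13. The block also gave 0.53 for Cyp3a13, in part through the same arrays, and -0.0029 for Cyp3a57 in the knockout under OCA. With quantile normalization the difference for Cyp3a11 was 0.0019, and OCA in knockout liver gave 0.029 for Cyp3a11 and 0.0077 for Cyp3a13. Without the arrays with names ending in 2, OCA in knockout liver gave 0.027 for Cyp3a11, 0.084 for Cyp3a13 and 0.016 for Cyp3a44, and Cyp3a13 differed by 0.019 in the knockout under OCA.

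With 1 array left out, Cyp3a11 ranged from -0.0046 to 0.060 under OCA in WT and from -0.039 to 0.011 in knockout liver. Cyp3a13 ranged from -0.020 to 0.21 in WT and from -0.057 to 0.024 in knockout liver under OCA, from -0.21 to 0.015 for their difference, and from -0.022 to 0.19 (vehicle) and -0.093 to 0.053 (OCA) for the knockout; the values of 0.21, -0.21 and 0.19 were those without WT vehicle replicate 6. Cyp3a16 ranged from -0.059 to 0.056 in WT and from -0.081 to 0.061 in knockout liver under OCA, and from -0.099 to 0.043 for their difference.

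Replicate numbers recur between groups, and the arrays of a number deviated together little (r from -0.08 to 0.17, over 0.1 in 2 of 36 pairs). Both of those pairs were WT vehicle with WT OCA, replicate 1 (r = 0.17) and replicate 6 (r = 0.16). Pairs of unlike numbers were not compared, so whether a number stands for anything shared cannot be told. With the replicate block 3 members were called in the knockout under vehicle, 3 under OCA, and 0 by OCA in either genotype or by the difference; Cyp3a44 differed by 1.00 under vehicle (adjusted p = 4.45e-07). The spread between arrays limits what small changes can be seen. The 95% intervals of the OCA effects allow changes of Cyp3a44 in WT liver of up to 0.38, and of up to 0.50 with array code number as block.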
